A study of Mus musculus with 16 samples.

Results

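The genes of interferon reception and JAK-STAT signalling were followed in mIMCD3 cells, an epithelial line of the mouse kidney's inner medullary collecting duct, established from SV40 transgenic animals. The 9 genes were chosen by name, with earlier results of these data known. All were found by symbol and Ensembl identifier among the 54393 genes of the count table and the 53354 genes of the TPM table. They comprise the type I interferon receptor subunits *Ifnar1* and *Ifnar2*, the interferon gamma receptor subunits *Ifngr1* and *Ifngr2*, the kinases *Jak1* and *Tyk2*, and the transcription factors *Stat2*, *Irf9* and *Irf1*. All cells were wild type and grew on filter membranes, and every group, controls included, shared a RenaLife medium that already contained antibiotics. They were then given DMSO, the vehicle, or doxycycline (DOX) at 2 µg/mL with daily changes of medium. The 4 groups were DMSO for 3 days, DOX for 3 days, DMSO for 6 days and DOX for 6 days, with 4 replicate libraries each. The sources used here do not say whether replicates came from separate passages of the line, so p-values measure the spread between these 16 libraries.

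Interferons are secreted proteins by which cells announce viral or other foreign nucleic acid. Type I interferons bind a receptor made of IFNAR1 and IFNAR2, to whose inner ends the kinases TYK2 and JAK1 are attached, and the kinases phosphorylate STAT proteins. STAT2 joins IRF9 in the factor ISGF3, which binds the interferon-stimulated response element (ISRE) of antiviral genes. Interferon gamma binds IFNGR1 and IFNGR2, which signal through JAK1 and JAK2 to a factor that binds the gamma-activated site (GAS), and *Irf1* is one of the genes switched on in this way. Epithelial cells in general carry both receptors, and several parts of the pathway are themselves induced by interferon.

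Total estimated counts per library ran from 16933343 to 23960860, and 3 counts were taken as the smallest detectable amount, a floor that covers counting error only. Each of the 9 genes was far above it, from 371 counts for *Tyk2* to 3324 for *Irf9*, and all 9 passed the limit of 1 CPM (counts scaled to the size of the library) in at least 4 libraries that left 13234 genes for testing. The label of the line was checked against markers. The 6 epithelial markers lay between 45.5 TPM (an abundance corrected for transcript length) and 955 TPM, while 5 of 6 leukocyte markers, *Ptprc* included, did not exceed 0.381 TPM in any library. *Csf1r* was the exception at 2.74 to 10.6 TPM. The 7 endothelial and fibroblast markers did not exceed 1.11 TPM.

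In GRCm38, with GENCODE M21, 3 of the 4 receptor genes form a cluster with *Il10rb*, the shared subunit of the interferon lambda and interleukin 10 receptors. The cluster covers 192.8 kb of the plus strand of chromosome 16, from 91372783 to 91565623. *Ifnar2* (ENSMUSG00000022971) extends from 91372783 to 91405589, *Ifnar1* (ENSMUSG00000022967) from 91485238 to 91507441 and *Ifngr2* (ENSMUSG00000022965) from 91547072 to 91565623. *Ifngr1* (ENSMUSG00000020009) is on chromosome 10 from 19591949 to 19610229, as is *Stat2* (ENSMUSG00000040033) from 128270559 to 128292849. *Jak1* (ENSMUSG00000028530) lies on the minus strand of chromosome 4 from 101152367 to 101265282 and *Tyk2* (ENSMUSG00000032175) on the minus strand of chromosome 9 from 21104068 to 21131243. *Irf9* (ENSMUSG00000002325) is on chromosome 14 from 55603571 to 55610030 and *Irf1* (ENSMUSG00000018899) on chromosome 11 from 53770014 to 53778374.

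Several of these genes overlap another gene, and their values carry that uncertainty. *Gm21970* (ENSMUSG00000093701, chromosome 16 from 91391721 to 91419451) reads through from *Ifnar2* into *Il10rb* on the same strand and shares 315 exon bases with *Ifnar2*, 9.5% of the exon bases of *Ifnar2*. It was at 0 counts in 12 of 16 libraries and at 5.62 counts at most. *Irf9* shares 123 exon bases, 2.3% of its own, with *Rnf31* on the same strand. *Rnf31* had 761 to 1292 counts and was not called at either time, with log2 fold changes of 0.0121 at 3 days and 0.279 at 6 days (edgeR's adjusted p = 1 and 0.475). *Tyk2* shares 8.1% of its exon bases with the antisense gene *1700084C06Rik*, which reached 4 counts at most, and *Irf1* shares 3.4% with *Gm17334* on the other strand, which reached 2.

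The promoter windows of the genes were read for both elements of the pathway. The windows run from 250 bases before to 50 bases after each start in RefSeq on GRCm38.p6, and all 9 genes matched, with 11 windows. An ISRE core was searched as GAAANNGAAA on both strands and was present in 3.44% of all 32851 windows. A GAS was searched as TTCNNNGAA, which reads the same on both strands, and was present in 8.3%. No window of the 9 genes held both, so the matches do not overlap. Of the 9 genes, *Stat2* held an ISRE core, on the reverse strand at -222 to -213 from its start. A GAS was found in *Irf1* at -90 to -82, in *Ifnar2* at -214 to -206 and in *Ifnar1* across the start at -5 to 3. Neither window of *Irf9* held these letters. Both begin after the GENCODE start of *Irf9* at 55603571, so the sequence before that start was not searched. A match is a description of the sequence only. The windows of these 5 genes are shown 5′ to 3′ because they include the 3 genes called after DOX and every match found, with the matched letters in capitals. For *Irf1* and *Irf9* the first of 2 windows is given.
Stat2, chr10:128270248-128270547, plus strand: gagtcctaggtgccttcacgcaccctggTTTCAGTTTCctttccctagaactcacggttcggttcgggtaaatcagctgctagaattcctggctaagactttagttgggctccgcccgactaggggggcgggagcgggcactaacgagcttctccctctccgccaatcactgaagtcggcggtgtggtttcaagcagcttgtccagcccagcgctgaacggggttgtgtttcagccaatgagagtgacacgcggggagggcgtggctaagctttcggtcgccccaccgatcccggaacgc
Irf1, chr11:53769764-53770063, plus strand: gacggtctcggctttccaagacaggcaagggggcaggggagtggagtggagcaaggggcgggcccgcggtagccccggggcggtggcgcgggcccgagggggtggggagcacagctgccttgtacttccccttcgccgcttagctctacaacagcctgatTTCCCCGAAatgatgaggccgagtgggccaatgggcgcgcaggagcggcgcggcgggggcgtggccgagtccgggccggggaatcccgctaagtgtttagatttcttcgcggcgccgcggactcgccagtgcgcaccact
Ifnar2, chr16:91372533-91372832, plus strand: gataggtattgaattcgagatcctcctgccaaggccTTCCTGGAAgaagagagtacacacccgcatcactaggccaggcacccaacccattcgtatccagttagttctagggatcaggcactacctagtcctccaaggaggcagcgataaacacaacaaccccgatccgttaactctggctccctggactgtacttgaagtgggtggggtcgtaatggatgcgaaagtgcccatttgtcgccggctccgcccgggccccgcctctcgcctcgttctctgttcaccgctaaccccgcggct
Ifnar1, chr16:91484965-91485264, plus strand: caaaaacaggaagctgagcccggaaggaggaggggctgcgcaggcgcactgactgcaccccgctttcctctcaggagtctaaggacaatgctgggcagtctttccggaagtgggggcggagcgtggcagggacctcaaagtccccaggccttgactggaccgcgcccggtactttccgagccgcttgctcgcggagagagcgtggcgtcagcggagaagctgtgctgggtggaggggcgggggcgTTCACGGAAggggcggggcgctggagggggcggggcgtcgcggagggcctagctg
Irf9, chr14:55603735-55604034, plus strand: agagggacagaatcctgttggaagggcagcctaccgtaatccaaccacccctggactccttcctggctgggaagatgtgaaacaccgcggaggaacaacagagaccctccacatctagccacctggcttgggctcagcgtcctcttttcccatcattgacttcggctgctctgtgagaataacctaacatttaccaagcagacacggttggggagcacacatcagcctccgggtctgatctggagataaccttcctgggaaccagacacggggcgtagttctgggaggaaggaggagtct

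The first question was how strongly each part of the pathway was expressed without DOX. In the 8 DMSO-treated libraries *Ifnar2* stood highest by TPM and *Tyk2* lowest, and the receptor, kinase and factor genes were otherwise mixed in the order. *Ifnar2* had 55.1 ± 4.46 TPM (SD, n = 8) and *Irf9* 47.3 ± 4.63 TPM. *Stat2* followed at 34.0 ± 5.12 TPM and *Ifngr1* at 33.6 ± 2.78 TPM. Below them came *Jak1* at 29.0 ± 2.15 TPM, *Ifngr2* at 27.6 ± 2.83 TPM, *Irf1* at 25.6 ± 2.83 TPM and *Ifnar1* at 25.2 ± 2.60 TPM. *Tyk2* had 6.61 ± 0.816 TPM.

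Neighbours in this order were compared within libraries by an exact two-sided sign-flip test on the difference in TPM, adjusted over the 8 neighbouring pairs. For 4 pairs the upper gene was higher in 8 of 8 libraries, with p = 0.00781 by the exact test (n = 8), the smallest it can give, and an adjusted p of 0.0156. These were *Ifnar2* over *Irf9*, *Irf9* over *Stat2*, *Ifngr1* over *Jak1* and *Ifnar1* over *Tyk2*. The neighbours *Stat2* and *Ifngr1* did not differ beyond their spread (exact test, adjusted p = 0.812), nor did *Jak1* and *Ifngr2* (0.312), *Ifngr2* and *Irf1* (0.250) or *Irf1* and *Ifnar1* (0.812). Libraries decided the order of *Stat2* and *Ifngr1*, which exchanged places without DMSO 3 days replicate 2, DMSO 3 days replicate 4 or DMSO 6 days replicate 1. *Irf1* and *Ifnar1* exchanged places without DMSO 6 days replicate 1, where they had 30.34 and 22.90 TPM. Mean TPM of *Irf1* was below that of *Ifnar1* at 3 days (24.21 against 25.85) and above it at 6 days (27.06 against 24.62).

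The top place of *Ifnar2* rested on the length that TPM uses for it. The count of a gene divided by its TPM is in proportion to the mean length that TPM uses for it. This quotient was scaled to bases in each library by 603 genes with 1 annotated transcript. The resulting length is approximate, since for *Jak1* it reached 4975 bases, above its longest annotated transcript of 4906 bases. For *Ifnar2* this length was 1095 ± 28 bases in the DMSO-treated libraries (SD, n = 8), against 3888 ± 39 bases for *Ifnar1*. The annotation holds 5 coding *Ifnar2* transcripts, of 384, 807, 1099, 2580 and 3047 bases. The implied length was thus close to that of the 1099-base transcript and far below the longest one, whereas that of *Ifnar1* was close to its longest transcript of 3909 bases. A mean over several transcripts can give the same length, and values of single transcripts were not analysed here. By TMM-scaled counts per kilobase of all annotated exon bases, *Ifnar2* was the sixth of the 9 genes and *Ifngr1* the first. *Ifnar2* is known to encode both a membrane-bound and a soluble form of the receptor.

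**Figure D1:**
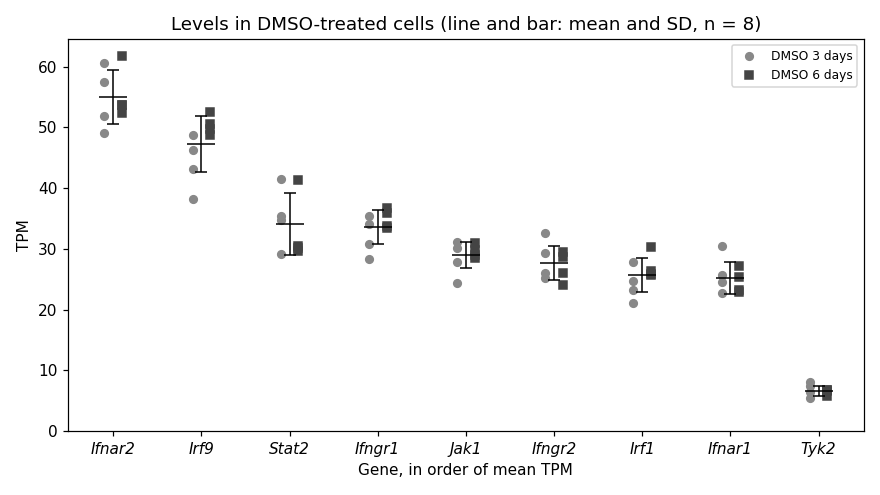
TPM of the 9 genes (vertical axis, linear) in the 8 DMSO-treated libraries, with circles for 3 days, squares for 6 days, and a line and bar for the mean and SD. *Ifnar2* lies between 49.0 and 61.8 TPM, and *Tyk2* between 5.49 and 7.99 TPM, below every library of the other 8 genes.

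DOX was then compared with DMSO at each time by edgeR's glmTreat, which asks whether a change exceeds 20%. Genes with a Benjamini-Hochberg adjusted p under 0.05 over all tested genes are referred to as called. DOX-treated cells had more *Ifnar2* and *Irf9* mRNA at both times and more *Stat2* mRNA at 6 days, by 1.33- to 1.46-fold, and the other 6 genes were not called at either time. At 3 days 2 of 9 genes were called higher, against 5.30% of all tested genes, and 0 were called lower, against 7.22%. At 6 days 3 of 9 were called higher, against 10.0%, and 0 lower, against 11.6%. Since the 9 genes were chosen with earlier results of these data known, these counts are descriptions and the shares are no independent test. The 9 genes included values of both signs at each time, and their median log2 fold change was -0.0974 at 3 days and 0.103 at 6 days, beside 0.00306 and -0.000641 over all tested genes. RNA was taken from whole cultures, so fewer cells of a kind and less RNA per cell cannot be told apart.

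**Figure D2:**
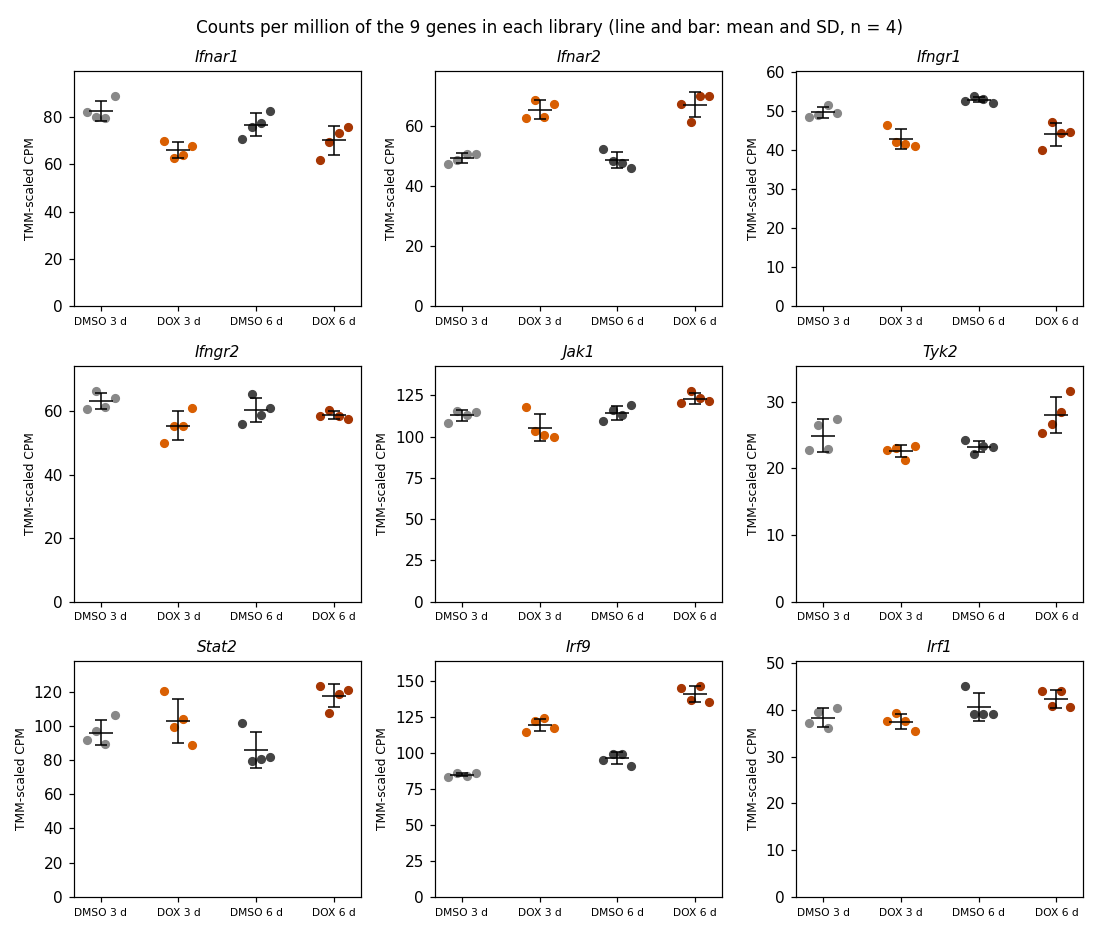
TMM-scaled CPM (vertical axes, linear from 0) of the 9 genes in each of the 16 libraries, with the mean and SD of each group of 4. All DOX-treated libraries lie above all DMSO-treated libraries of the same time for *Ifnar2* and *Irf9* at both times and for *Stat2* at 6 days.

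Of the 2 type I receptor subunits, *Ifnar2*, which binds interferon with the higher affinity, rose. *Ifnar2* in the 4 replicates had 47.3, 48.5, 50.8 and 50.7 CPM after 3 days of DMSO and 62.6, 68.6, 63.1 and 67.4 CPM after 3 days of DOX. The 6-day replicates of *Ifnar2* had 52.5, 48.4, 47.8 and 46.0 CPM in DMSO and 67.2, 61.2, 69.8 and 70.0 CPM in DOX. All DOX-treated libraries were above all DMSO-treated ones at both times. The log2 fold change of *Ifnar2* was 0.41 at 3 days (SE 0.0591, adjusted p = 0.0254 by edgeR) and 0.46 at 6 days (SE 0.0589, adjusted p = 0.00226). The 3-day call was close to the limit. It was lost without DMSO 3 days replicate 1 or 2 or DOX 3 days replicate 2 or 4, with an adjusted p of up to 0.0843. That call was also lost by edgeR without a filter (0.0998), with DESeq2 (0.144) and, as at 6 days, by limma on TPM (1 at 3 days and 0.174 at 6 days). Adding the counts of *Gm21970* left the log2 fold changes at 0.41 and 0.46.

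*Ifnar1*, the other subunit, was not called at either time. *Ifnar1* had 82.2, 80.1, 79.6 and 88.8 CPM in DMSO and 70.1, 62.7, 63.8 and 67.8 CPM in DOX at 3 days. The 3-day groups of *Ifnar1* did not overlap, yet the log2 fold change of -0.32 (SE 0.0655) missed the limit of the 20% test, with an adjusted p of 0.28 by edgeR. At 6 days the groups overlapped, with 70.9, 75.7, 77.6 and 82.7 CPM in DMSO and 62.0, 69.6, 73.2 and 75.9 CPM in DOX, and the log2 fold change was -0.13 (SE 0.0653, adjusted p = 1). Tested against no change in place of 20%, *Ifnar1* was lower at 3 days (adjusted p = 0.000464 by edgeR's glmQLFTest) and not called at 6 days (0.107). That test called 5982 of all 13234 tested genes at 3 days and 6702 at 6 days, so a call by it is common in these data. The difference between the times was 0.19 (SE 0.0925, adjusted p = 0.151), and it was called without DOX 6 days replicate 1 (0.25, adjusted p = 0.0424).

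The TPM of the 2 subunits was set side by side within libraries as a ratio, which was chosen after the values were seen and is given without a test. *Ifnar2* stood at 1.99 to 2.24 times the TPM of *Ifnar1* in the DMSO-treated libraries of 3 days and at 1.98 to 2.70 times in those of 6 days. After DOX the ratio ran from 3.23 to 3.89 at 3 days and from 3.18 to 4.02 at 6 days, so that no DOX-treated library overlapped the DMSO-treated ones of either time. By counts, without division by length, the ratio ran from 0.556 to 0.740 in DMSO and from 0.880 to 1.095 in DOX over both times. The level of the TPM ratio thus depended on the length that TPM uses for each gene. The length implied for *Ifnar2* was 1081 ± 16 bases after 3 days and 1075 ± 20 bases after 6 days of DOX (SD, n = 4), beside 1089 ± 27 and 1102 ± 31 bases in DMSO. These lengths overlapped between the groups at both times.

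The interferon gamma receptor genes were not called. *Ifngr1*, the ligand-binding chain, had 48.5, 49.1, 51.5 and 49.6 CPM in DMSO and 46.6, 42.1, 41.5 and 41.2 CPM in DOX at 3 days. At 6 days it had 52.6, 53.9, 53.2 and 52.2 CPM in DMSO and 40.2, 47.2, 44.5 and 44.6 CPM in DOX. Its DOX-treated libraries lay below its DMSO-treated ones at both times. The log2 fold changes of *Ifngr1* were -0.21 (SE 0.0578, adjusted p = 1 by edgeR) and -0.26 (SE 0.0574, adjusted p = 0.59), the latter about as large as the 20% threshold itself. Without that threshold *Ifngr1* was lower at both times (adjusted p = 0.00518 and 0.000664). *Ifngr2*, the signalling chain, had group means between 55.5 and 63.2 CPM and overlapping groups at both times, with log2 fold changes of -0.19 (SE 0.062) and -0.04 (SE 0.0618), both at an adjusted p of 1 by edgeR. Tested against no change, *Ifngr2* was lower at 3 days (adjusted p = 0.0175).

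**Figure D3:**
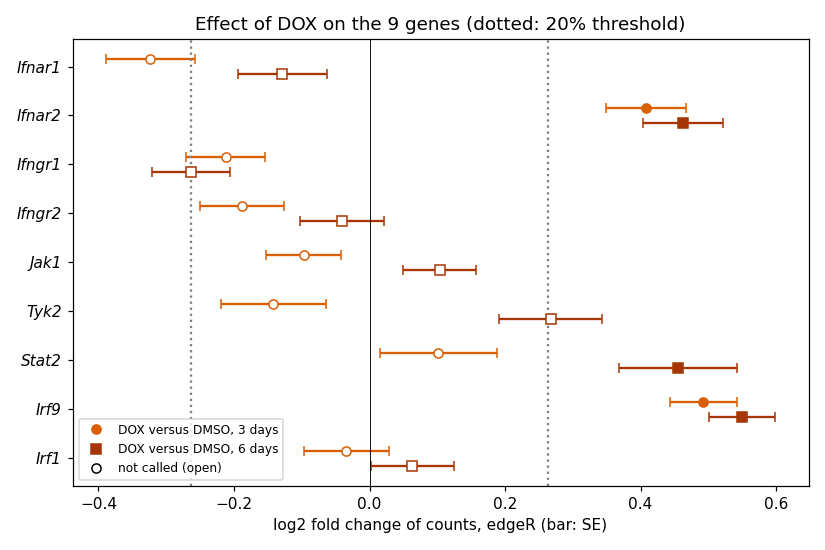
Log2 fold change of DOX over DMSO (horizontal axis, bars for the SE) of the 9 genes at 3 days (circles) and 6 days (squares), filled where called and with the 20% threshold as dotted lines. *Ifnar2* and *Irf9* are filled at both times and *Stat2* at 6 days, while *Ifnar1* and *Ifngr1* lie left of 0 at both times and were not called.

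Neither kinase gene was called at either time. *Jak1*, the kinase shared by both receptors, had 108, 115, 113 and 115 CPM in DMSO and 118, 104, 101 and 99.8 CPM in DOX at 3 days, and DOX replicate 1 stood above the other 3. At 6 days *Jak1* had 110, 116, 113 and 119 CPM in DMSO and 120, 128, 123 and 121 CPM in DOX. The log2 fold changes of *Jak1* were -0.10 (SE 0.0547) and 0.10 (SE 0.0544), each with an adjusted p of 1 by edgeR. The difference between them was 0.20 (SE 0.0771, adjusted p = 0.0761), and it was called without DOX 3 days replicate 1 (0.26, adjusted p = 0.00491).

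*Tyk2*, the kinase attached to IFNAR1, responded to DOX differently at 6 days than at 3 days, a call that several alternatives did not keep. *Tyk2* had 22.7, 26.6, 22.8 and 27.4 CPM in DMSO and 22.7, 23.1, 21.3 and 23.3 CPM in DOX at 3 days. At 6 days it had 24.3, 22.2, 23.3 and 23.3 CPM in DMSO and 25.2, 26.6, 28.5 and 31.6 CPM in DOX, with no overlap. Its log2 fold change was -0.14 at 3 days (SE 0.077, adjusted p = 1) and 0.27 at 6 days (SE 0.0761, adjusted p = 0.566), so neither single time was called. The difference between them was 0.41 (SE 0.108, adjusted p = 0.0144 by edgeR's glmQLFTest, without a threshold). It was not called with a threshold of 20% (adjusted p = 0.323), by limma on TPM (0.103), or after correcting for the length and GC content of transcripts, which left a difference of 0.18 (0.177, and 0.153 with the replicate block). Tested against no change, *Tyk2* was higher at 6 days (adjusted p = 0.00586).

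Among the transcription factors, *Irf9*, the DNA-binding part of ISGF3, had the smallest adjusted p of the 9 genes at both times. *Irf9* had 83.4, 85.6, 84.0 and 85.8 CPM after 3 days of DMSO and 114, 122, 124 and 117 CPM after 3 days of DOX. After 6 days *Irf9* had 94.6, 99.4, 99.2 and 90.8 CPM in DMSO and 145, 136, 146 and 135 CPM in DOX. The gap between the treatments exceeded the spread within any group. The log2 fold change of *Irf9* was 0.49 at 3 days (SE 0.0494, adjusted p = 0.000321 by edgeR) and 0.55 at 6 days (SE 0.0491, adjusted p = 1.17e-05), and leaving out any single library kept both calls. The call at 6 days was made on TPM as well (limma, adjusted p = 0.0365), but the call at 3 days was not (adjusted p = 1).

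*Stat2*, which joins IRF9 in ISGF3, was called at 6 days and not at 3 days. *Stat2* had 91.7, 97.0, 89.4 and 106 CPM in DMSO and 120, 99.3, 104 and 89.2 CPM in DOX at 3 days, with wide overlap and a log2 fold change of 0.10 (SE 0.0868, adjusted p = 1 by edgeR). At 6 days it had 102, 79.8, 80.4 and 81.8 CPM in DMSO and 123, 108, 119 and 121 CPM in DOX. DMSO replicate 1 stood above the other 3 controls but below all DOX-treated libraries. The 6-day log2 fold change was 0.46 (SE 0.0869, adjusted p = 0.0251), and 0.55 without that replicate (adjusted p = 0.00171). The call was lost without DMSO 6 days replicate 2, 3 or 4 or DOX 6 days replicate 1 or 4, with an adjusted p of up to 0.0747, with DESeq2 (0.214) and by limma on TPM (0.751). The difference between the times was 0.35 (SE 0.123) and was not called, with an adjusted p of 0.0522. It was called without DOX 3 days replicate 1 (difference 0.44, adjusted p = 0.00611), DMSO 6 days replicate 1 or DOX 6 days replicate 2, and also with DESeq2 (0.0414), with 1 CPM in all 16 libraries (0.0477), without a filter (0.00187) and with the replicate block (0.0451).

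*Irf1*, a factor downstream of the gamma receptor whose window carries a GAS, was not called at either time. Group means of *Irf1* ran from 37.5 to 42.4 CPM, the groups overlapped at both times, and the log2 fold changes were -0.03 (SE 0.0624) and 0.06 (SE 0.0617), each with an adjusted p of 1 by edgeR. Among the printed windows, that of *Stat2* holds an ISRE core, that of *Ifnar2* a GAS and that of *Irf9* neither. The windows of *Irf1* and *Ifnar1* hold a GAS, and these genes were not called. For *Irf9* the elements cannot be set against the call, since its windows begin after its GENCODE start.

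Separation of the libraries was read against the same count over all genes. The DOX- and DMSO-treated libraries did not overlap for 4 of the 9 genes at 3 days (*Ifnar1*, *Ifnar2*, *Ifngr1* and *Irf9*), against 38.6% of all tested genes. At 6 days they did not overlap for 6 of 9 (*Ifnar2*, *Ifngr1*, *Jak1*, *Tyk2*, *Stat2* and *Irf9*), against 43.0%. The difference between the DOX effects of 6 and 3 days was called for 1 of 9 genes, against 17.0% of all tested genes. For *Ifnar2* and *Irf9*, called at both times, the difference was 0.05 (SE 0.0833, adjusted p = 0.698 by edgeR) and 0.06 (SE 0.0695, adjusted p = 0.616). The time in DMSO alone was not accompanied by a call in any of the 9 genes, whose log2 fold changes from 3 to 6 days ran from -0.16 for *Stat2* to 0.18 for *Irf9*. In DMSO *Irf9* had 83.4 to 85.8 CPM at 3 days and 90.8 to 99.4 CPM at 6 days, without overlap. *Ifngr1* had 48.5 to 51.5 and 52.2 to 53.9 CPM, also without overlap. The share of all genes without overlap between the DMSO times is not given here. Over all tested genes 0 (0%) were called in that comparison, where edgeR's glmTreat gave 172 an unadjusted p under 0.05, and 62 passed without the 20% threshold.

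Each called gene was also matched to the 2 tested genes outside the 9 with the most similar pattern, measured as the root mean square difference of log2 CPM, each centred on its own mean, over the 16 libraries. For *Irf9* these were *Dnaja3* at 0.0491 and *Aatf* at 0.0519, and for *Ifnar2* they were *Coq2* at 0.0568 and *Oxa1l* at 0.0645. For *Stat2* they were *Prdm9* at 0.0767 and *Cuedc1* at 0.0836. *Dnaja3* had log2 fold changes of 0.47 at 3 days and 0.54 at 6 days, beside 0.49 and 0.55 for *Irf9*. *Aatf* had 0.50 and 0.56. *Coq2* had 0.40 and 0.47, beside 0.41 and 0.46 for *Ifnar2*, and *Oxa1l* had 0.38 and 0.48, not called at 3 days (adjusted p = 0.0950 by edgeR). *Prdm9* had 0.21 and 0.40 and *Cuedc1* 0.11 and 0.34, beside 0.10 and 0.46 for *Stat2*, and neither was called at either time. These are descriptions of likeness in level across the same libraries.

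The rest of the pathway was described by lists written from general knowledge, but chosen with earlier results of these data known. Counts over these lists are therefore descriptions, and the shares over all genes beside them are no independent test. *Jak2*, the kinase attached to IFNGR2, fell at 6 days with a log2 fold change of -0.40 (SE 0.0597, adjusted p = 0.0239 by edgeR), and had -0.33 at 3 days (adjusted p = 0.198). Of 8 further JAK kinases and STATs, 7 were tested. Called lower were 0 at 3 days and 1, *Jak2*, at 6 days, beside 7.22% and 11.6% of all tested genes. The count at 6 days is near the share over all genes. That count of 1 at 6 days became 0 without DMSO 6 days replicate 2 or 4, with DESeq2, by limma on TPM and without a filter.

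Of the 12 negative regulators, all tested, 1 was called higher at both times and 1 lower at 3 days, beside 5.30% and 10.0% of all tested genes higher and 7.22% lower at 3 days. Such counts are near the share over all genes. *Usp18*, which holds back signalling at IFNAR2, rose by 0.71 and 0.66 on the log2 scale (SE 0.0626 and 0.0621, adjusted p at 6 days = 3.67e-06 by edgeR). *Ptpn1*, a phosphatase that acts on JAK2 and TYK2, fell at 3 days with a log2 fold change of -0.45 (SE 0.0618, adjusted p = 0.00893) and had -0.35 at 6 days (adjusted p = 0.0966). DESeq2, limma on TPM, and the correction for length and GC content with or without the replicate block called 0 of this list lower at 3 days, and that correction called 1 lower at 6 days. In the list 2 were called higher without DMSO 3 days replicate 1, DOX 3 days replicate 1 or DOX 6 days replicate 1. Of 6 tested among 7 other interferon regulatory factors, 1 was called higher at 3 days and 2 at 6 days. These were *Irf7*, which amplifies type I interferon production, with log2 fold changes of 0.57 and 0.85, and *Irf5* with 0.58 at 6 days (adjusted p = 0.00572), of which DESeq2 and limma on TPM called 1 at 6 days, while limma called 0 at 3 days. Both genes of the type III interferon receptor were tested and 0 were called, with median log2 fold changes of -0.17 and -0.01.

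Most target genes of ISGF3 and of interferon gamma were called higher at 6 days, on lists chosen with earlier results of these data known. Of 16 ISGF3 target genes, all tested, 10 were called higher at 3 days and 13 at 6 days, beside 5.30% and 10.0% of all tested genes, and 0 lower, with median log2 fold changes of 0.52 and 0.67. The 3 largest fitted rises at 6 days were those of *Mx1*, a GTPase that blocks viruses, at 2.08 (SE 0.290), *Rsad2*, which encodes viperin, at 1.01 (SE 0.0973) and *Oasl2*, of the oligoadenylate synthetase family, at 0.83 (SE 0.0691). Of 10 tested among 14 interferon gamma target genes, 5 were called higher at 3 days and 8 at 6 days and 0 lower, with medians of 0.43 and 0.87. Here the largest rises at 6 days were those of *Nlrc5*, the activator of MHC class I genes, at 1.48 (SE 0.135), *Cd274*, which encodes PD-L1, at 1.33 (SE 0.0819), and *Tap1*, a peptide transporter, at 1.30 (SE 0.0697). The value of *Mx1* rested on 16 to 19 counts per library in DMSO at 6 days (0.924 ± 0.0935 CPM, SD, n = 4), where DMSO at 3 days had 1.95 ± 1.06 CPM, and *Mx1* was not among the genes with 1 CPM in all 16 libraries. An ISRE core was present in 8 of 13 promoter windows of the ISGF3 target genes and in 6 of 12 windows of the interferon gamma target genes, beside 1 of 11 windows of the 9 genes. By limma on log2(TPM + 1), which changes both the scale and the test, 2 of 16 and 0 of 10 targets were called at 3 days, and 11 and 6 at 6 days.

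The ligand genes had few counts. Of 12 interferon genes 1 was tested, *Ifnb1*, with 11 to 31 counts (1.23 to 3.09 TPM) per library and log2 fold changes of 0.42 (SE 0.265, adjusted p = 0.533 by edgeR) and 0.33 (SE 0.254, adjusted p = 0.632). The other 11 reached 6 counts at most. *Mx1*, a gene picked for its large rise, was called at 6 days at a log2 fold change of 2.08. It had 16 to 19 counts in DMSO and 73 to 93 in DOX, more than *Ifnb1* reached. Whether a smaller change of *Ifnb1* could be called was not tested. Markers moved beside these results. Of the 6 epithelial markers 2 were called lower at 3 days and 3 at 6 days, beside 7.22% and 11.6% of all tested genes. The 6-day count was 1 without DMSO 6 days replicate 1 or DOX 6 days replicate 2. *Csf1r*, the one tested leukocyte marker, was lower at both times (log2 fold changes of -0.82 and -0.63, adjusted p = 0.00711 and 0.0342 by edgeR). Its 6-day call was lost without DMSO 6 days replicate 1 or 4 or DOX 6 days replicate 1, 3 or 4. *Cd3e* and *Adgre1* did not exceed 1 count in any library. The part of these markers in the results of the pathway genes was not tested.

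**Figure D4:**
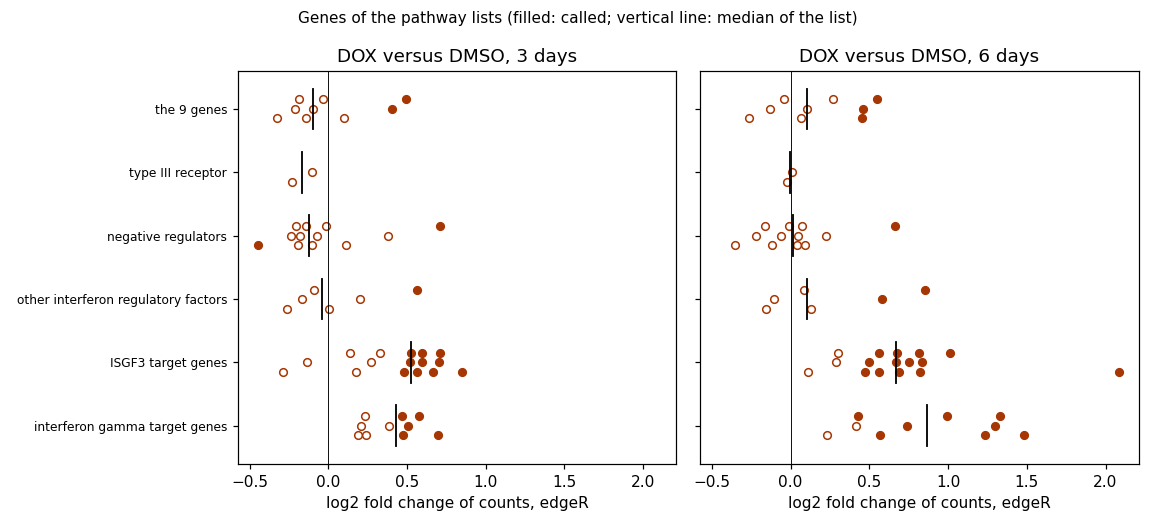
Log2 fold change of DOX over DMSO (horizontal axes) of the tested genes of 6 lists at 3 days (left) and 6 days (right), filled where called, with the median of each list as a vertical line. The 9 genes lie between -0.32 and 0.55 over both times, and the ISGF3 target genes reach 2.08 at 6 days.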

How the data were processed

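Polyadenylated RNA of 16 mIMCD3 cultures was sequenced as read pairs with a directional kit. The authors aligned reads to GRCm38.p6 with STAR and quantified them with salmon (version 0.14.10 in the submitters' processing notes). The deposited estimated counts per gene are not normalized, and TPM, also deposited by the authors, divides by transcript length as well. Whether counting used strand is not given in the sources used here. Groups and replicate numbers were read from the labels.

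Estimated counts were rounded and limited to the 13234 genes that reached 1 CPM in 4 or more libraries. After TMM scaling, edgeR 4.0.16 in R 4.3.3 fitted a robust quasi-likelihood model with a mean for each group. DOX and DMSO, and the 2 times in DMSO, were compared by glmTreat at a fold change of 1.2, and the difference between DOX effects by glmQLFTest. Tests were two-sided, adjusted over all tested genes with a limit of 0.05. Standard errors were derived from the F statistic. CPM values are TMM-scaled. Positions and overlaps come from GENCODE M21 and promoters from RefSeq. The fit was tested on simulated counts with known changes.

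Alternatives were RLE scaling, DESeq2 1.42.0, limma 3.58.1 on log2(TPM + 1) and log2(TPM + 0.1), other thresholds, filters and fits, the replicate block, a length and GC correction, the addition of *Gm21970* to *Ifnar2*, and each library left out. Results of some genes are not reported here. The members and lists were chosen with earlier results of these data known. Named singly were the 9 genes and *Gm21970*, list genes called at either time (in lists with more than 6, the 3 with the largest change at 6 days), and for each called member the 2 genes nearest in pattern. *Ifnb1*, *Rnf31*, *Csf1r* and the markers at or near 0 were named after their values were seen, as was the implied transcript length introduced.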

Additional observations from a re-analysis of the deposited data

Results flagged for a closer look

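In DMSO at 6 days, replicate 1 lay far from the other 3 libraries for *Stat2*, with 102 CPM against 79.8, 80.4 and 81.8 CPM, a gap of 0.909 of the group's range. The same library had 45 CPM of *Irf1*, against 39.1, 39.1 and 39.1 CPM in the others, a gap of 0.987 of the range. Both gaps exceed Dixon's limit for 4 libraries, and among the 36 groups of 4 examined chance alone gives about 1 in 20. Without this library the 6-day log2 fold change of *Stat2* was 0.55 and that of *Irf1* 0.12 (adjusted p = 0.00171 and 1 by edgeR).

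The effect of DOX on *Tyk2* differed between 6 and 3 days by 0.41 on the log2 scale (SE 0.108, adjusted p = 0.0144 by edgeR's interaction test). The correction for length and GC content left 0.183 (adjusted p = 0.177), and 0.179 with the replicate block, and the call was also lost by limma on TPM (0.103 and 0.106) and with a 20% threshold (0.323). *Tyk2* was higher after DOX in 4 of 4 libraries than in every control at 6 days, while the groups overlapped at 3 days.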

How the results depend on the processing

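Of the 9 genes, 2 were called at 3 days. DESeq2 called 1, limma on log2(TPM + 1) and on log2(TPM + 0.1) called 0 each, no threshold 5 and no filter 1, and leaving out single libraries gave 1 to 2. At 6 days 3 were called, against 1 and 1 by limma on the TPM scales, 5 without a threshold, and 2 to 3 without single libraries. The counts without a threshold stand beside 5982 of all 13234 tested genes at 3 days and 6702 at 6 days. The difference between times was called for 1 gene, against 2 with DESeq2, 0 and 0 with limma, 0 with a threshold of 20%, 2 with 1 CPM in all 16 libraries, 2 without a filter, 0 with the length and GC correction and 1 to 3 without single libraries. Deviations of same-numbered libraries correlated at -0.433 to 0.178, so the replicate numbers were not taken as pairs. With the replicate block the difference was called for 2 genes, and for 0 with the replicate block and the length and GC correction. No alternative called any of the 9 genes between the times in DMSO. In the order of levels 3 to 4 pairs were called.

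Signs turned only for values that were not called. *Tyk2* at 3 days became 0.0141 (replicate block with length and GC correction) and 0.0102 (length and GC correction alone), and *Ifngr2* at 6 days ran from -0.0738 to 0.000862 over the fits without single libraries. The difference of *Ifngr1* became 0.0918 and 0.0961 by limma on TPM, 0.0443 with the replicate block and correction and 0.0448 with the correction alone, where that of *Irf9* became -0.0203 and -0.0218. *Ifnar2* between the DMSO times became 0.0172 and 0.0175 by limma and ran from -0.0582 to 0.00564 without single libraries. The causes were not tested.

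The TPM scale moved the median log2 fold change of all tested genes to -0.149 at 3 days, -0.0547 at 6 days and 0.104 for the difference, and limma called 701 genes at 3 days (12.1% of them higher) against 1658 (42.3% higher) in edgeR, and 1307 (28.8% higher) against 2856 (46.4% higher) at 6 days. On that scale the 3-day values were 0.227 for *Ifnar2* and 0.277 for *Irf9*, each with an adjusted p of 1. DESeq2 called 1019 genes at 3 days, and without a threshold 5982 and 6702 were called. The interferon ligand genes had 31 counts or fewer per library.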
